A study of Mus musculus with 11 samples.

Results

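The suppressor of cytokine signalling (SOCS) family was read in the hearts of *Pde2A*-/- and *Pde2A*+/+ mouse embryos. Its members were chosen by name, as the 8 genes *Cish* and *Socs1* to *Socs7*, and each symbol was matched to 1 of the 55487 gene identifiers in the deposited tables. The hearts were taken at E14.5 from 5 embryos that lacked Pde2A, a phosphodiesterase that hydrolyses cAMP and cGMP, and from 6 wild-type embryos. All carried the strain name B6; 129P2-Pde2A<tm1Dgen>, no group received an agent, and each heart was 1 library of stranded mRNA sequencing. The allele is a germline one, so Pde2A was missing from every tissue of the knockout embryos and not from the heart alone. No litter or sex was given for any heart.

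SOCS proteins are made in response to cytokines and then shut off the receptors that induced them. A cytokine receptor activates JAK kinases, these phosphorylate STAT transcription factors, and the STATs switch on SOCS genes, whose products bind the receptor or the kinase through an SH2 domain and bring in an elongin and cullin ubiquitin ligase through the SOCS box. CISH and SOCS2 act mostly on receptors that use STAT5, SOCS3 on those that use gp130 and STAT3, and SOCS1 on interferon receptors, while SOCS4 to SOCS7 are tied to receptor tyrosine kinases and insulin signalling. In the heart, SOCS3 is known as a brake on gp130 signalling in cardiomyocytes.

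Reads on the strand of a gene numbered 35865537 to 42835382 per heart. *Pde2a* itself had 0 to 2 counts in any heart, 7 over all 11, so the knockout labels could not be checked by it. The counts were this low in *Pde2A*+/+ hearts as well, for a reason that was not tested. Reads shared by genes are in no count, so these values do not show that *Pde2a* RNA was absent from wild-type hearts. *Xist*, the RNA of the silenced X chromosome, was above 1000 counts in 2 *Pde2A*-/- hearts and 1 *Pde2A*+/+ heart. Some libraries stood apart. The summed level of 6 liver genes was 110.7 CPM in *Pde2A*+/+ heart E, 42.3 in *Pde2A*+/+ heart 11, 35.5 in *Pde2A*+/+ heart H and 36.4 in *Pde2A*-/- heart D, and at most 2.95 CPM in the other 7 hearts. The T cell gene *Cd3e* had 223 counts in *Pde2A*+/+ heart 7 and 0 in the other 10 hearts, and that heart also held 735 counts of *Il7* where no other heart passed 6. The log2 fold changes of the family are therefore also given without these hearts.

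All 8 members passed the filter of at least 10 counts over the 11 hearts, with 116 to 2822 counts per heart. *Cish*, *Socs2* and *Socs3* rose in *Pde2A*-/- hearts and no member fell. Thus 3 of 8 were higher at an adjusted p under 0.05 (edgeR's quasi-likelihood test, Benjamini-Hochberg adjustment over 24177 genes), where 8.93% of all tested genes were higher and 5.67% were lower. None of the 3 reached a 2-fold change, which 2.59% of all genes did together with the adjusted p. At an unadjusted p under 0.05, 4 members passed, where 30.5% of all genes did. The 8 members had a median log2 fold change of 0.08, and all tested genes one of -0.02. The genotypes did not overlap in *Socs2* and *Socs3*, as in 8.49% of all genes.

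**Figure D1:**
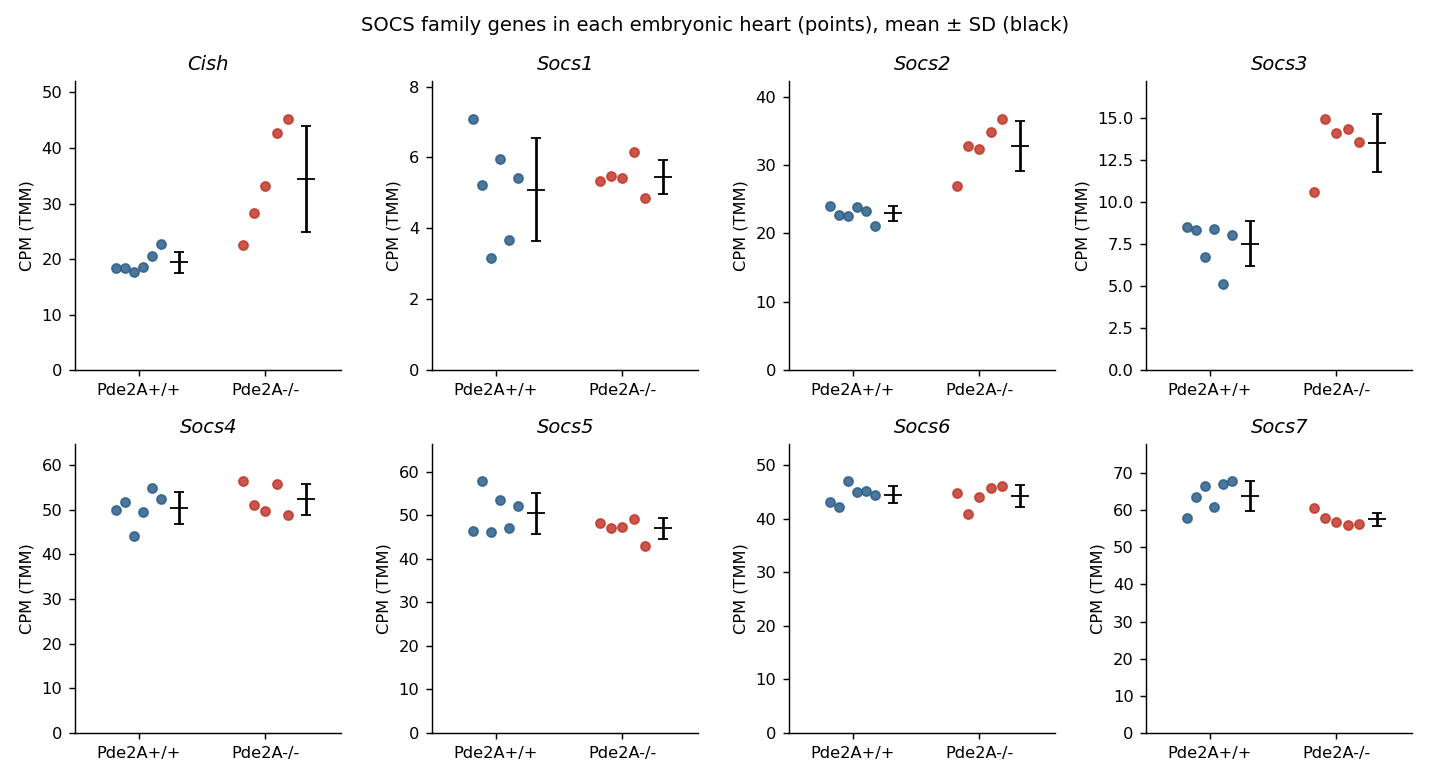
The plot of the 8 members by heart shows the TMM-normalized CPM of each *Pde2A*+/+ (n = 6) and *Pde2A*-/- (n = 5) heart as a point, with the mean ± SD in black and an axis from 0 for each gene. The points of *Socs2* and *Socs3* do not overlap between genotypes, *Cish* is spread from 22.6 to 45.3 CPM in *Pde2A*-/- hearts, and the points of *Socs1* and *Socs4* to *Socs7* overlap.

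The promoters of the members that rose were read first for the palindrome TTCNNNGAA, the GAS element to which STAT dimers bind. *Cish* and *Socs3* are shown because they rose and hold it, and *Socs1* because it did not pass and lacks it. RefSeq promoter windows of GRCm38.p6 run from 250 bases before to 50 bases after a gene's start, and 4 of the 8 members had one. *Socs2*, *Socs5*, *Socs6* and *Socs7* had no entry. The lines below give the 250 bases before the start on the strand of the gene, and for *Cish* 30 more, with matches in capitals. *Cish* is chr9:107296409-107296688 on the plus strand, *Socs3* is chr11:117969367-117969616 on the minus strand and *Socs1* is chr16:10785537-10785786 on the minus strand.
Cish: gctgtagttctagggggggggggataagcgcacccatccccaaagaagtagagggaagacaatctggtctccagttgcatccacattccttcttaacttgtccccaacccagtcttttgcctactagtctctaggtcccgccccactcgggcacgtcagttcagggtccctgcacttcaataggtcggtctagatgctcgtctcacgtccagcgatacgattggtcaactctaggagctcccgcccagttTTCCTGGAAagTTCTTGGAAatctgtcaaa
Socs3: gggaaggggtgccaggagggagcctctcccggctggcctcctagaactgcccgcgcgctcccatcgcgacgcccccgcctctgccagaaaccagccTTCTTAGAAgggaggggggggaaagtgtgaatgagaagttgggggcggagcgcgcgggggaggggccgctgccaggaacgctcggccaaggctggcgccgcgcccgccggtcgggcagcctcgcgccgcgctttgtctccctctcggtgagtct
Socs1: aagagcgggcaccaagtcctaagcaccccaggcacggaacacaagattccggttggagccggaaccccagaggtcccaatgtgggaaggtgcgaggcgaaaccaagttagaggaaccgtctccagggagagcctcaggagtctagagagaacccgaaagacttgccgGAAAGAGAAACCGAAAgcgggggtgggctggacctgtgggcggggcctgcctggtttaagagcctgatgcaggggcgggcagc

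The *Cish* window held 2 matches to TTCNNNGAA, both just after the RefSeq start, and the *Socs3* window held 1. The *Socs1* and *Socs4* windows held 0. Of 32851 promoter windows of the same length, 8.30% held at least 1 match and 0.457% held 2 or more. The palindrome reads alike on both strands. The capitals of *Socs1* are 2 overlapping matches to GAAA, any 2 bases and GAAA again, a core of the interferon-stimulated response element that was looked for, on both strands, after the windows had been seen. It was present in 3.44% of all windows and at least 2 times in 0.225%, and *Cish*, *Socs3* and *Socs4* held 0. A match to these letters does not show that a factor was bound, and no binding was measured here.

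*Cish* (ENSMUSG00000032578, GRCm38 chromosome 9, 107296026 to 107302784, plus strand) encodes CISH, the STAT5-induced inhibitor of erythropoietin, growth hormone and interleukin-2 family receptors. Its level was 22.6, 28.4, 33.1, 42.7 and 45.3 CPM in *Pde2A*-/- hearts A, B, 14, D and 15. In *Pde2A*+/+ hearts the lowest was 17.7, the median 18.6 and the highest 22.7 CPM, in heart E. Thus 4 of 5 *Pde2A*-/- hearts were above every *Pde2A*+/+ heart, and heart A lay just under heart E, which also had the highest sum of liver genes. The mean was 34.4 ± 9.55 CPM (SD, n = 5) against 19.4 ± 1.86 (n = 6), a rise of 1.77-fold with a 95% interval of 1.41 to 2.22. On the log2 scale this was 0.82 with a standard error of 0.15 (edgeR quasi-likelihood test, Benjamini-Hochberg adjusted p = 0.00415). The coefficient of variation was 27.8% among *Pde2A*-/- hearts and 9.58% among *Pde2A*+/+ hearts, so the level of *Cish* spread most of the 8 members in the knockout group. *Cish* exons share 261 bases with *Gm17040* and 479 bases with *Gm17041* on the opposite strand. Counted without strand, its reads came to 65.4% of the stranded count, and the change was 0.81 on the log2 scale.

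*Socs2* (ENSMUSG00000020027, chromosome 10, 95385362 to 95417180, minus strand) encodes the inhibitor of growth hormone receptor signalling, whose loss makes mice overgrow. It stood at 27.0, 32.8, 32.4, 34.9 and 36.8 CPM in *Pde2A*-/- hearts A, B, 14, D and 15. The *Pde2A*+/+ hearts ran from 21.1 through a median of 23.0 to 24.0 CPM, so that every *Pde2A*-/- heart was above them. The means were 32.8 ± 3.67 CPM (SD, n = 5) and 22.9 ± 1.04 (n = 6), a ratio of 1.43 with a 95% interval of 1.29 to 1.59. The log2 fold change was 0.52 with a standard error of 0.07 (edgeR quasi-likelihood test, Benjamini-Hochberg adjusted p = 0.000528). It was the smallest rise of the 3 and had the lowest adjusted p of the 8 members.

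*Socs3* (ENSMUSG00000053113, chromosome 11, 117966079 to 117970047, minus strand) encodes the inhibitor that binds gp130 next to the JAK kinase and limits STAT3 signalling by interleukin-6 type cytokines. It measured 10.6, 14.97, 14.1, 14.4 and 13.6 CPM in *Pde2A*-/- hearts A, B, 14, D and 15. Among *Pde2A*+/+ hearts it was 5.12 at the lowest, 8.22 at the median and 8.53 CPM at the highest. The groups did not overlap. The means of 13.5 ± 1.71 CPM (SD, n = 5) and 7.54 ± 1.36 (n = 6) gave a 1.79-fold rise with a 95% interval of 1.47 to 2.19. The log2 fold change was 0.84 with a standard error of 0.13 (edgeR quasi-likelihood test, Benjamini-Hochberg adjusted p = 0.00140). *Pde2A*-/- heart A had the lowest level of the 5 knockout hearts in *Cish*, in *Socs2* and in *Socs3*.

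The 3 rises passed the test whichever of the 11 hearts was left out. Without the 4 hearts with liver genes, which left 4 against 3, the log2 fold change of *Cish* was 0.82 and that of *Socs2* 0.46, no longer past the test (edgeR quasi-likelihood test, Benjamini-Hochberg adjusted p = 0.0840 and 0.0578), and that of *Socs3* was 0.75 (adjusted p = 0.0314). Without *Pde2A*+/+ heart 7 as well, which left 4 against 2, the values were 0.84, 0.49 and 0.82 (edgeR quasi-likelihood test, Benjamini-Hochberg adjusted p = 0.175, 0.131 and 0.0669), and none of the 3 passed. Hearts were named by letter or by number, for reasons the labels do not give. Among those named by number (2 against 4) the 3 genes passed with 1.09, 0.57 and 0.79, and among those named by letter (3 against 2) their log2 fold changes of 0.53, 0.50 and 1.01 did not (edgeR quasi-likelihood test, Benjamini-Hochberg adjusted p = 0.504, 0.187 and 0.154). The only *Pde2A*+/+ hearts named by letter, E and H, were among the 4 with liver genes, as was *Pde2A*-/- heart D. Naming style and liver genes are thus partly confounded, and these are not separate checks.

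**Figure D2:**
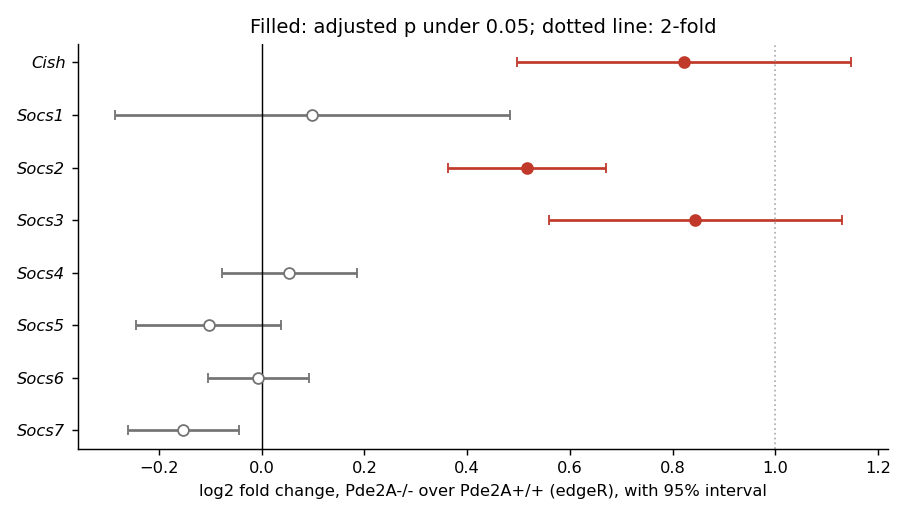
The plot of changes gives the edgeR log2 fold change of each member, *Pde2A*-/- over *Pde2A*+/+, with its 95% interval as a bar. Points are filled where the adjusted p was under 0.05, and a dotted line marks a 2-fold rise. *Cish* at 0.82, *Socs2* at 0.52 and *Socs3* at 0.84 are filled, and *Socs7* at -0.15 is open although its unadjusted interval ends below 0.

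*Socs1* (ENSMUSG00000038037, chromosome 16, 10782240 to 10785536, minus strand) encodes the JAK inhibitor that restrains interferon signalling. It was 5.35, 5.48, 5.42, 6.16 and 4.85 CPM in *Pde2A*-/- hearts A, B, 14, D and 15, all inside the *Pde2A*+/+ range of 3.18 to 7.09 CPM (median 5.32). The fold change was 1.07 with a 95% interval of 0.820 to 1.40 (edgeR quasi-likelihood test, Benjamini-Hochberg adjusted p = 0.767). The highest level of *Socs1* in any heart was in *Pde2A*+/+ heart 7, which alone held *Cd3e*. Its coefficient of variation was 28.5% in *Pde2A*+/+ hearts, the largest of the 8 members there, and 8.60% in *Pde2A*-/- hearts.

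*Socs4* and *Socs5* encode the members with long N-terminal regions that are linked to the epidermal growth factor receptor. *Socs4* (ENSMUSG00000048379, chromosome 14, 47276931 to 47296102, plus strand) measured 52.4 ± 3.48 CPM (SD, n = 5) in *Pde2A*-/- and 50.5 ± 3.63 (n = 6) in *Pde2A*+/+ hearts. Its fold change was 1.04 with a 95% interval of 0.948 to 1.14 (edgeR quasi-likelihood test, Benjamini-Hochberg adjusted p = 0.608). *Socs5* (ENSMUSG00000037104, chromosome 17, 87107679 to 87137839, plus strand) measured 47.0 ± 2.35 and 50.5 ± 4.75 CPM, a ratio of 0.931 with an interval of 0.844 to 1.03 (edgeR quasi-likelihood test, Benjamini-Hochberg adjusted p = 0.313). For both genes the interval excludes a change as large as the 1.43-fold of *Socs2*.

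*Socs6* (ENSMUSG00000056153, chromosome 18, 88665224 to 88927481, minus strand) encodes an inhibitor of KIT and insulin receptor signalling. It varied least of the 8 members in *Pde2A*+/+ hearts, where its coefficient of variation was 3.70%. Its mean was 44.3 ± 2.02 CPM (SD, n = 5) in *Pde2A*-/- and 44.5 ± 1.65 (n = 6) in *Pde2A*+/+ hearts, a ratio of 0.995 with a 95% interval of 0.930 to 1.07 (edgeR quasi-likelihood test, Benjamini-Hochberg adjusted p = 0.941).

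*Socs7* (ENSMUSG00000038485, chromosome 11, 97362551 to 97398542, plus strand) encodes the member that binds insulin receptor substrates. It was 60.5, 57.9, 56.8, 56.0 and 56.4 CPM in *Pde2A*-/- hearts A, B, 14, D and 15 and ran from 57.8 through a median of 65.0 to 67.8 CPM in *Pde2A*+/+ hearts. In 3 of 5 *Pde2A*-/- hearts it was under every *Pde2A*+/+ heart. The log2 fold change was -0.15 with a standard error of 0.05 and a 95% interval of -0.26 to -0.04, not past the test (edgeR quasi-likelihood test, Benjamini-Hochberg adjusted p = 0.0578). It did pass with DESeq2, where the log2 fold change was -0.15 (DESeq2, Benjamini-Hochberg adjusted p = 0.0197), and in edgeR without *Pde2A*-/- heart A or without *Pde2A*+/+ heart 7. Without the 4 hearts with liver genes the log2 fold change was nearer to 0, at -0.0926, and without *Pde2A*+/+ heart 7 as well it was -0.125, and neither passed (edgeR quasi-likelihood test, Benjamini-Hochberg adjusted p = 0.475 and 0.400).

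The other members that did not pass stayed so without these hearts. Without the 4 hearts with liver genes the log2 fold changes were -0.0356 for *Socs1*, 0.105 for *Socs4*, -0.0676 for *Socs5* and -0.0372 for *Socs6*. Without *Pde2A*+/+ heart 7 as well they were 0.217, 0.148, -0.0897 and -0.0547 in the same order.

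The levels of different members can be compared only per length, and were taken as CPM per kb of merged exons. In *Pde2A*+/+ hearts the order was *Socs7* at 8.80 ± 0.550 CPM per kb (SD, n = 6), *Socs5* at 7.87 ± 0.741, *Socs4* at 7.34 ± 0.528, *Socs6* at 3.92 ± 0.145, *Cish* at 3.03 ± 0.290, *Socs3* at 2.61 ± 0.469, *Socs2* at 2.40 ± 0.109 and *Socs1* at 1.75 ± 0.499. The ranges of the first 3 overlapped from 1 to the next, as did those of *Cish*, *Socs3*, *Socs2* and *Socs1*. The lowest level of *Socs4*, 6.43 CPM per kb, was above the highest of *Socs6*, 4.14, and the lowest of *Socs6*, 3.73, was above the highest of *Cish*, 3.54. Among 24146 genes with a length, the 8 members lay between percentiles 54.6 (*Socs1*) and 77.9 (*Socs7*), with the median of all genes at 1.10 CPM per kb. The members tied to cytokine receptors, *Cish* and *Socs1* to *Socs3*, thus had lower levels in the wild-type heart than *Socs4* to *Socs7*.

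In *Pde2A*-/- hearts the mean of *Cish* was 5.36 ± 1.49 CPM per kb (SD, n = 5) and that of *Socs3* 4.68 ± 0.593, both above the 3.91 ± 0.178 of *Socs6*. These 3 genes overlapped in range. *Socs2* at 3.44 and *Socs1* at 1.87 CPM per kb kept the last places in the order of means. The order depends on the length used. With the longest transcript in place of all exons, the *Pde2A*+/+ level of *Socs2* was 5.40 CPM per kb, above *Cish* at 4.14, and *Socs5* at 10.9 was above *Socs7* at 9.11. By that length *Socs6* stood at 7.38 in *Pde2A*+/+ hearts, further above *Cish* and above *Socs3* at 2.95. The place of *Cish* and *Socs3* above *Socs6* in *Pde2A*-/- hearts is therefore given for merged exons only.

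**Figure D3:**
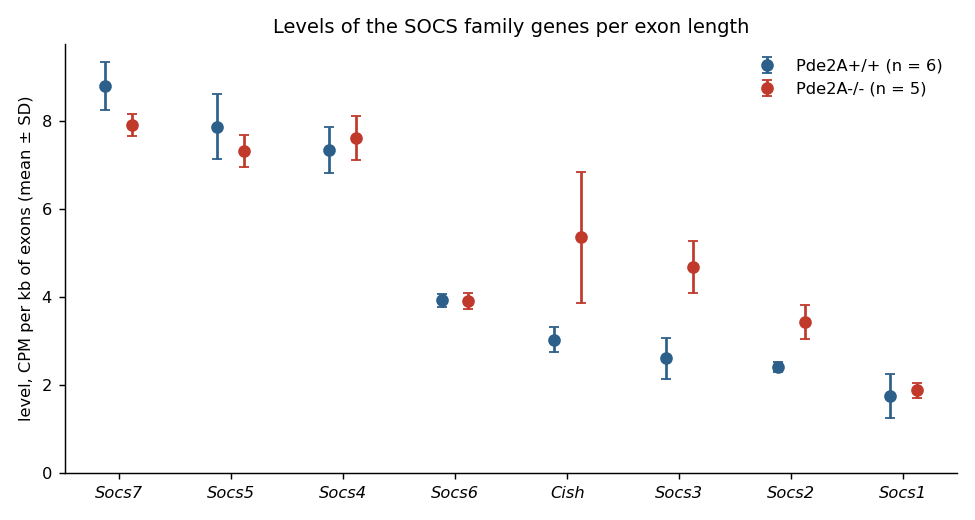
The plot of levels shows the mean CPM per kb of merged exons of each member as a point, with the SD as a bar, in *Pde2A*+/+ (n = 6) and *Pde2A*-/- (n = 5) hearts, from 0. *Socs7*, *Socs5* and *Socs4* are the highest in both genotypes, between 7.32 and 8.80 CPM per kb. By merged exons, *Cish* and *Socs3* move from below *Socs6* to above it in *Pde2A*-/- hearts, and this order depends on the length used.

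For each member that rose, the genes that varied most like it between hearts were sought, after the mean of each genotype had been taken away, among 14018 genes averaging 1 CPM or more. The measure was Pearson's r over 11 hearts and is a description only, since all genes share the library and its depth. The genes named are also the highest of 14018 values, so a high r comes in part from the search. Deviations were not scaled within a genotype. The r of *Cish*, whose coefficient of variation was 27.8% among *Pde2A*-/- and 9.58% among *Pde2A*+/+ hearts, therefore rests mostly on the *Pde2A*-/- hearts. *Cish* was most like *Morc4* (r = 0.987), *Bhlhe40* (0.983) and *Med13l* (0.981). *Bhlhe40*, a transcriptional repressor induced by hypoxia and cytokines, rose by 1.49 on the log2 scale (edgeR quasi-likelihood test, Benjamini-Hochberg adjusted p = 0.00286). *Socs2* was most like *Pcx* (0.942), *Mpc1* (0.931) and *Gm10313* (0.920), of which *Pcx* and *Mpc1* encode mitochondrial proteins of pyruvate metabolism. *Pcx* rose by 0.41 on the log2 scale, while *Mpc1* at -0.00112 and *Gm10313* at 0.15 did not pass (edgeR quasi-likelihood test, Benjamini-Hochberg adjusted p = 0.995 and 0.658). *Socs3* was most like *Aldh18a1* (0.924), *Mob3a* (0.922) and *Scara3* (0.908).

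The signalling chain around the family was read from 10 lists with 166 genes, of which 151 were tested. In *Pde2A*-/- hearts 57 rose and 6 fell, against 8.93% and 5.67% of all genes tested, and the median log2 fold change was 0.21. Of 28 receptors that signal through JAK and STAT, 12 rose and 0 fell, with a median of 0.30. Without the 4 hearts with liver genes 7 rose.

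Among the receptors, *Epor*, the erythropoietin receptor, had the largest rise. Its signal can induce *Cish* and *Socs2* through STAT5, but whether it did so here was not tested. *Epor* lay between 8.14 and 12.7 CPM in *Pde2A*-/- and between 1.89 and 2.69 CPM in *Pde2A*+/+ hearts, a log2 fold change of 2.29 with a standard error of 0.14 (edgeR quasi-likelihood test, Benjamini-Hochberg adjusted p = 2.25e-06). The 11 tested erythroid markers had a median log2 fold change of 2.96, and the part of red cells in the rise of *Epor* was not tested. *Csf2rb*, the shared beta chain of the receptors for GM-CSF, IL-3 and IL-5, rose by 1.90. *Il6st*, which encodes gp130, rose from 220.9 ± 6.64 CPM (SD, n = 6) to 283.2 ± 18.03 (n = 5), by 0.36 on the log2 scale. *Ifngr1*, an interferon gamma receptor chain, rose by 0.26. *Ghr*, the growth hormone receptor, had a log2 fold change of 0.15, and *Ifnar1*, a type I interferon receptor chain, 0.12, and neither passed (edgeR quasi-likelihood test, Benjamini-Hochberg adjusted p = 0.0706 and 0.142).

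Few cytokines of the ligand list were detected at a level of 1 CPM or more in the mean of *Pde2A*+/+ hearts, 3 of 26. One of these was *Il7*, at 19.2 CPM in *Pde2A*+/+ heart 7 and at most 0.163 CPM in the other 5 *Pde2A*+/+ hearts. Of the 12 that passed the filter, 1 rose and 0 fell, with a median log2 fold change of -0.15. The gene that rose was *Il6*, with 7 to 17 counts in each *Pde2A*-/- heart and 1 to 5 in each *Pde2A*+/+ heart, and it no longer passed with DESeq2, with the filter of edgeR's filterByExpr or without the 4 hearts with liver genes. Without *Pde2A*+/+ heart 7, which held most of the *Il7* counts, 2 ligands rose. *Lif*, another gp130 ligand, had a log2 fold change of 0.26 and did not pass (edgeR quasi-likelihood test, Benjamini-Hochberg adjusted p = 0.570). *Epo* had 0 or 1 count per heart and was not tested.

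Of 11 genes for JAK kinases and STAT factors, 7 rose and 0 fell, with a median of 0.35. *Stat3* rose from 87.9 ± 4.17 CPM (SD, n = 6) to 179.2 ± 45.6 (n = 5), by 1.03 on the log2 scale. *Stat5b* rose by 0.35 and *Jak2*, the kinase of the erythropoietin and growth hormone receptors, by 0.21. *Stat5a* had a log2 fold change of 0.07 (edgeR quasi-likelihood test, Benjamini-Hochberg adjusted p = 0.728). Without the 4 hearts with liver genes 4 of the 11 rose.

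Known targets of these factors were counted beside the family. The lists were not limited to genes that only 1 factor induces, and no STAT activity was measured. Of 14 STAT3 targets 11 rose, with a median of 0.74, led by *Lcn2*, an iron-binding acute-phase protein, by 3.23 and *Fos* by 1.54 on the log2 scale. *Lcn2* was near the floor in *Pde2A*+/+ hearts, at 0.23 ± 0.18 CPM (SD, n = 6) against 2.17 ± 0.93 in *Pde2A*-/- hearts (n = 5). It met the limit of 1 CPM for naming only through the *Pde2A*-/- hearts. The count of STAT3 targets was 7 without *Pde2A*-/- heart 14 or 15 or *Pde2A*+/+ heart 6 or 7, and 3 without the 4 hearts with liver genes. Of 10 STAT5 targets 3 rose, with a median of 0.15. These were *Pim1*, a survival kinase, by 0.99, *Myc* by 0.39 and *Bcl2l1* by 0.33, and *Bcl2l1* was chosen for naming after its value was seen. With DESeq2 5 of the 10 rose, and without the 4 hearts with liver genes 1 did. No target fell in either list.

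Of 14 genes for other inhibitors of JAK-STAT signalling, such as PIAS proteins and phosphatases, 1 rose and 0 fell, with a median log2 fold change of 0.03. This was *Usp18*, which removes ISG15 and blocks the type I interferon receptor. Its level was 8.37 ± 3.77 CPM (SD, n = 5) against 0.45 ± 0.155 (n = 6), a log2 fold change of 4.20 with a standard error of 0.35 (edgeR quasi-likelihood test, Benjamini-Hochberg adjusted p = 9.65e-06). Without *Pde2A*+/+ heart 7 the count was 3, without *Pde2A*-/- heart A it was 2, and DESeq2 had 2 of the 14 lower.

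Of 9 elongin BC and cullin partners, 4 fell and 0 rose, with a median of -0.18. The list was not limited to the ligase to which the SOCS box couples. *Elob* fell by 0.24 and *Nedd8* by 0.21 on the log2 scale, and *Eloc* by 0.19 and *Cul2* by 0.18, the last 2 named after their values were seen. The genotypes overlapped in each of the 4, and none of the 9 fell when *Pde2A*-/- heart 14, 15 or D, *Pde2A*+/+ heart 6, or the 4 hearts with liver genes were left out. When *Pde2A*+/+ heart 7, 8, E or H was left out 1 fell. Of 26 tested genes for other SOCS box proteins 3 rose and 2 fell, with a median of 0.04. *Asb11* and *Asb1* rose by 0.83 and 0.24, and *Asb18* and *Spsb4* fell by 0.62 and 0.33. These 2 counts turned on single hearts. Without *Pde2A*-/- heart 14, 15 or D or *Pde2A*+/+ heart 6, 7, 8 or 11, 1 of the 26 rose. The number that fell was 0 without *Pde2A*-/- heart 14, 15 or D or *Pde2A*+/+ heart 6 or H, 1 without *Pde2A*+/+ heart 7, 8 or E, and 4 without *Pde2A*-/- heart A or B or *Pde2A*+/+ heart 11.

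Of 11 genes for receptor tyrosine kinases and insulin receptor substrates, 5 rose and 0 fell, with a median of 0.32. SOCS4 to SOCS7 are tied to signalling of this kind, but the list was not limited to their known targets. *Irs2* rose from 35.7 ± 4.11 CPM (SD, n = 6) to 61.8 ± 16.3 (n = 5), by 0.79 on the log2 scale, and *Kit*, the stem cell factor receptor, from 32.4 ± 1.24 to 51.0 ± 9.57, by 0.65. Without *Pde2A*-/- heart D 3 of the 11 rose, and without the 4 hearts with liver genes none did.

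**Figure D4:**
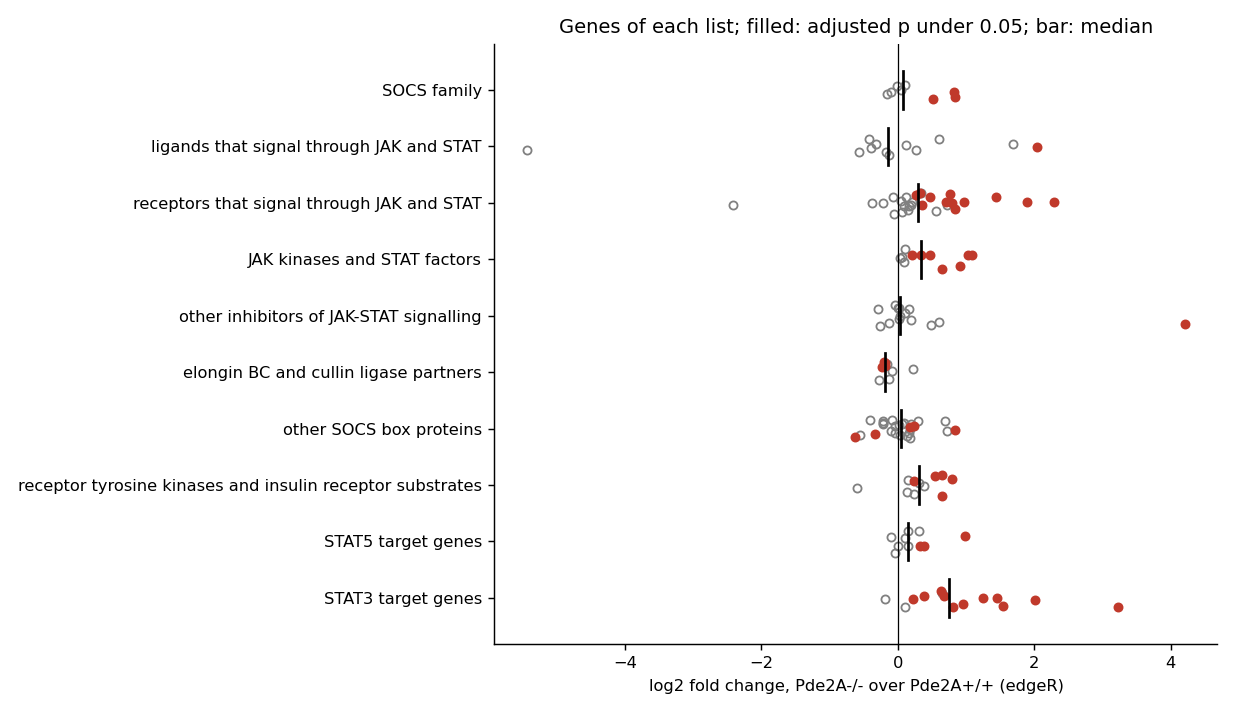
The plot of lists shows each tested gene of 9 lists and of the SOCS family as a point at its edgeR log2 fold change, *Pde2A*-/- over *Pde2A*+/+, by list, filled where the adjusted p was under 0.05, with a bar at the median. The medians run from -0.18 for the elongin and cullin partners to 0.74 for the STAT3 targets, and that of the 8 SOCS family genes is 0.08.

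Markers of other cells moved with genotype as well. In bulk tissue, a gene higher in a sample can mean more cells of a type or more RNA per cell, and these cannot be told apart. Of 11 tested erythroid markers 10 rose, led by *Hemgn* by 4.94 on the log2 scale, and their summed level was 571.3 to 1125 CPM in *Pde2A*-/- and 144.4 to 540.9 in *Pde2A*+/+ hearts. *Alas2*, which makes heme in red cells, had a log2 fold change of -0.60 and did not pass (edgeR quasi-likelihood test, Benjamini-Hochberg adjusted p = 0.2205). Of 11 macrophage markers 9 rose, led by *Fcgr1* by 1.19, with sums of 187.6 to 243.5 CPM against 96.7 to 143.8. Of 5 tested megakaryocyte markers 3 rose, led by *Ppbp* by 1.81, with sums of 28.8 to 40.3 CPM against 13.2 to 24.8. Each tested marker of these 3 lists had counts in every heart. The part of these cells in the rises of *Cish*, *Socs2* and *Socs3* was not tested. With the erythroid and globin genes left out of the fit, the 3 log2 fold changes were 0.83, 0.52 and 0.85. That fit changes the normalization only. It takes away no read of the 3 genes, whichever cell the read came from, so it cannot show the part of these cells.

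*Pde2A*-/- heart A, lowest of its group in *Cish*, *Socs2* and *Socs3*, was also the lowest in the erythroid sum at 571.3 CPM and in the macrophage sum at 187.6 CPM. The order of the other 4 knockout hearts differed between these genes and these sums, and other lists were not compared in this way. *Cish* and *Socs2* differed from each other only in the order of hearts B and 14. Heart B had the highest erythroid sum, 1125 CPM, and the highest *Socs3*, but the second lowest *Cish*, and heart 15 had the highest *Cish* and *Socs2* with an erythroid sum of 915.1 CPM.

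The cells of the heart itself were read by the same kind of list. The 11 cardiomyocyte markers, with sums of 33018 to 44991 CPM in *Pde2A*+/+ and 34087 to 40029 CPM in *Pde2A*-/- hearts, were by far the most abundant, and 2 fell, *Ttn* by 0.51 and *Nkx2-5* by 0.27 on the log2 scale. Of 10 endothelial markers 4 rose, *Emcn* the most by 0.50, and *Cldn5* fell by 0.79, with sums of 1585 to 1825 CPM against 1288 to 1539. Of 9 fibroblast markers 3 rose, led by *Postn* by 0.42, and of 8 smooth muscle and pericyte markers 2 fell, led by *Cnn1* by 0.38. Of 8 tested lymphocyte and granulocyte markers 4 rose, the neutrophil gene *S100a9* by 2.98 among them, and the mast cell gene *Cpa3* fell by 1.73, with sums of 17.2 to 44.5 CPM against 1.72 to 18.1. None of the 6 liver genes passed, and their sums of 1.65 to 36.4 CPM in *Pde2A*-/- and 1.75 to 110.7 CPM in *Pde2A*+/+ hearts overlapped.

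**Figure D5:**
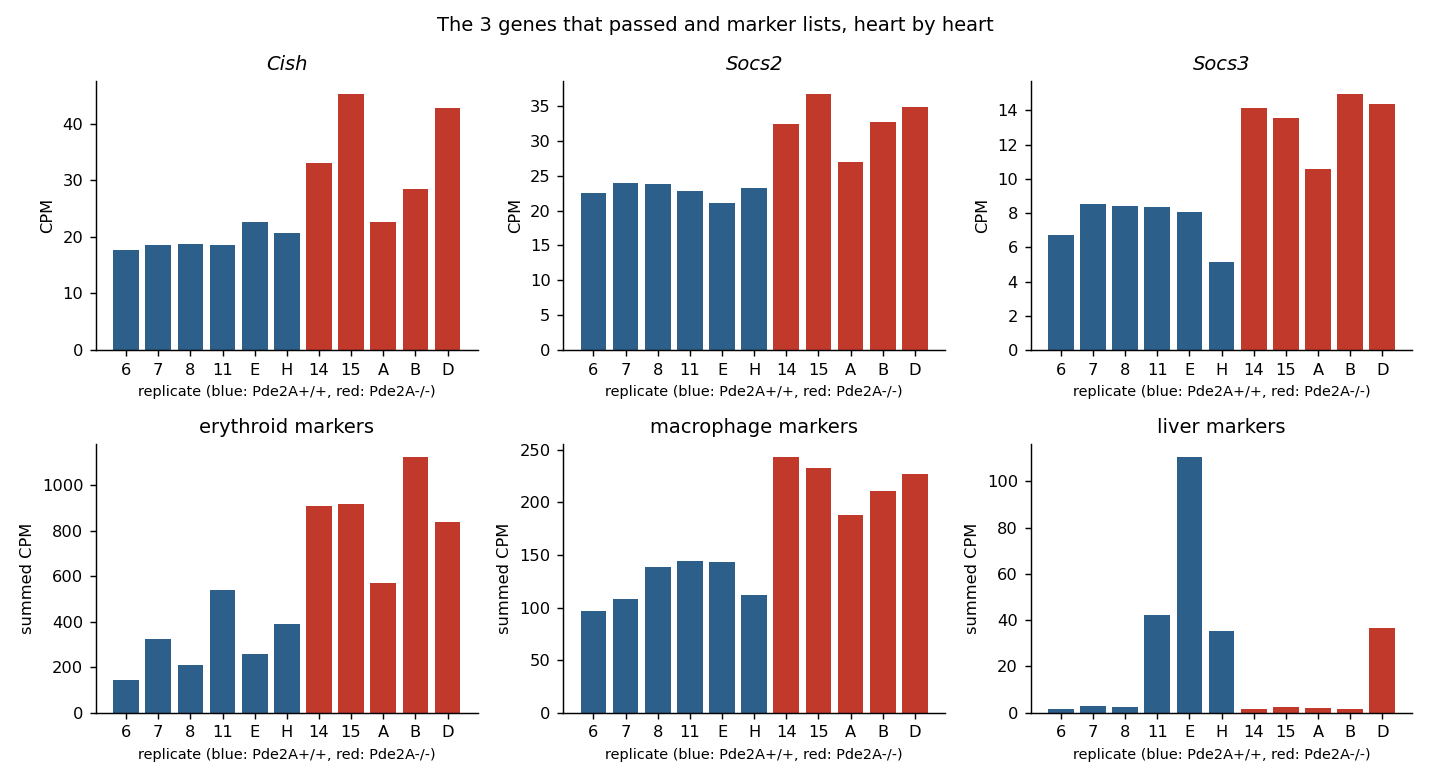
The bar charts give, for each of the 11 hearts, the CPM of *Cish*, *Socs2* and *Socs3* and the summed CPM of marker lists, with *Pde2A*+/+ in blue and *Pde2A*-/- in red and every axis from 0. The erythroid and macrophage sums of the 5 *Pde2A*-/- hearts are all above those of the 6 *Pde2A*+/+ hearts, and liver genes stand out in *Pde2A*+/+ hearts E, 11 and H and in *Pde2A*-/- heart D.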

How the data were processed

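RNA of whole embryonic hearts was sequenced by the authors as single-end reads of stranded mRNA libraries on an Illumina NextSeq and mapped with STAR to GRCm38 (mm10). The authors deposited, for each heart, raw counts per gene as whole numbers, without strand and on either strand, unnormalized. Reads shared by genes are in none of these counts. Counts on the sense strand were used, the larger of both strands, and 19.6% to 22.4% of the reads lay on no single gene and were left out. GENCODE M21 gave names to 55227 of 55487 gene identifiers. Intervals and p-values rest on the spread between hearts and take the hearts as independent. For genes with few counts, such as *Il6*, counting error is a large part of that spread. Nothing states a litter or batch, so hearts that shared one could not be taken into account.

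The 24177 genes that reached 10 counts in all were tested with edgeR 4.0.16 in R 4.3.3 (TMM, quasi-likelihood test, Benjamini-Hochberg adjustment over all of them, threshold 0.05). CPM values are TMM-normalized. Log2 CPM, used for the likeness between genes and for the *Xist* covariate, has a prior count of 2. The edgeR log2 fold changes are those of the fit. Their standard errors are the absolute log2 fold change over the square root of the F statistic, and the 95% intervals follow from these by the t distribution. Promoter windows came from RefSeq for GRCm38.p6. Python 3.11.15 was used with numpy 2.4.6, pandas 2.3.3 and, for plots, matplotlib 3.10.9, and the fit was tested on simulated data. The members and gene lists were chosen with earlier results of these data known. Named genes are the 8 members, the 2 largest rises and falls per list with a mean of at least 1 CPM, 13 inducers of the members whatever their values, the largest rise and fall per marker list, the 3 genes most like each member that rose, and *Xist* and *Pde2a*. *Cd3e*, *Il7*, *Alas2*, *Nkx2-5* and the genes overlapping *Cish* were named after their values were seen. Some genes and 1 list are not reported here and enter only the counts over several genes. The alternatives were DESeq2 1.42.0, its size factors, other count filters, reads of both strands, erythroid and globin genes left out, *Xist* or the naming style of the hearts as a covariate, fits within each naming style, other thresholds, and each heart left out. Leaving out the hearts with more than 10 CPM of liver genes, and the heart with over 100 counts of *Cd3e*, was added after the data were seen.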

Additional observations from a re-analysis of the deposited data

How the results depend on the processing

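*Cish*, *Socs2* and *Socs3* kept their direction in every fit and passed with DESeq2, with its size factors, with either count filter, with reads of both strands, with erythroid and globin genes left out and with either covariate. With each heart left out in turn, the log2 fold changes were 0.71 to 0.94 for *Cish*, 0.47 to 0.58 for *Socs2*, 0.76 to 0.93 for *Socs3*, -0.00103 to 0.22 for *Socs1*, 0.02 to 0.08 for *Socs4*, -0.13 to -0.06 for *Socs5*, -0.0213 to 0.0203 for *Socs6* and -0.18 to -0.13 for *Socs7*. The members counted as higher were 3 throughout, and those counted as lower 0 to 1. A limit of 2-fold left 0 higher. Leaving out the 4 hearts with liver genes left 1 higher, with log2 fold changes of 0.82 (*Cish*) and 0.46 (*Socs2*) that no longer passed and *Socs1* turned to -0.0356. Leaving out *Pde2A*+/+ heart 7 as well left 0 higher, at 0.84, 0.49 and 0.82 for *Cish*, *Socs2* and *Socs3*. Within hearts named by letter the 3 genes were at 0.53, 0.50 and 1.01 and did not pass, and within those named by number *Socs1* turned to -0.0624 and *Socs6* to 0.0207. *Socs6* was at 0.000136 with reads of both strands. *Socs7* passed at -0.15 with DESeq2, -0.16 with edgeR's filterByExpr and -0.17 with the naming style as a covariate, and these, like an unadjusted threshold, counted 1 member lower. It did not pass without the liver-gene hearts (-0.0926) or without heart 7 also (-0.125). The list genes that rose numbered 45 to 63 with single hearts left out, 26 without the liver-gene hearts and 27 without heart 7 also, from 57. Those that fell numbered 0 to 13 with single hearts left out, 13 with DESeq2, 10 with filterByExpr, 10 with the naming style, 0 without the liver-gene hearts and 1 without heart 7 also, from 6. Per longest transcript the *Pde2A*+/+ levels were 4.14 (*Cish*), 5.40 (*Socs2*), 10.9 (*Socs5*) and 7.38 (*Socs6*) CPM per kb. Fits that leave out hearts hold fewer samples, and otherwise the cause was not tested. Protein identity, planned, was not run. No paired analysis was possible because the genotypes share no replicate name.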
